A study of Oryza sativa with 27 samples.

Results

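Tau-class glutathione transferase loci were followed in cultured rice cells dosed with the herbicide safener metcamifen, the safener cyprosulfamide or the carrier dimethyl sulfoxide (DMSO) alone. The set was a given list of 35 loci, of which 32 had a row among the 46102 loci of the count table. The other 3, LOC_Os10g38495, LOC_Os10g38501 and LOC_Os10g38690, were not analysed here. By their identifiers, 27 listed loci form a run on chromosome 10 from LOC_Os10g38140 to LOC_Os10g38780 (24 with a row), 5 a run on chromosome 1 from LOC_Os01g72120 to LOC_Os01g72170, 2 a pair on chromosome 1 (LOC_Os01g49710 and LOC_Os01g49720), and 1 lies on chromosome 7 (LOC_Os07g28480). The class comes from that list, because the count table holds identifiers alone and 0 of the 32 matched the reference gene table. The class label could therefore not be checked, and no single locus is given a name or a role.

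The cells were suspension cultures of the cultivar Tsukinohikari, 5 days old at dosing. Metcamifen or cyprosulfamide was added to 5 µM from stocks dissolved in DMSO, and control cultures received DMSO, so that the carrier was common to all 9 groups. Each treatment was sampled after 30, 90 and 240 minutes in 3 biological replicates, giving 27 libraries of polyadenylated RNA with totals of 5516373 to 43747251 counts. One cultivar grown as suspended cells stands for rice here, and in bulk RNA fewer cells with a transcript and less transcript per cell cannot be told apart.

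Glutathione transferases join the tripeptide glutathione to electrophilic compounds, among them several classes of herbicide, and the conjugates are then carried into the vacuole. The tau class occurs in plants and is encoded by large families whose genes often sit side by side as tandem copies. Safeners are compounds given with a herbicide to protect a cereal crop, and higher glutathione transferase expression is a long-known part of the safener response. Both safeners used here are acyl sulfonamides that share a methoxybenzoyl sulfonamide core, and they differ at the other end of the molecule, where metcamifen carries a methylurea and cyprosulfamide a cyclopropyl amide.

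The libraries carrying replicate number 1 stood apart within each treatment, to the other side under metcamifen than in DMSO and cyprosulfamide. On the first principal component, which held 21.03% of the variance of all loci, the 3 DMSO libraries numbered 1 lay at 23.8 to 44.6 and the other 6 at -45.2 to -17.8. The 3 metcamifen libraries numbered 1 lay on the opposite side of their own treatment, at -44.1 to -21.3 against -6.7 to 31.9. The 3 cyprosulfamide libraries numbered 1 lay at 16.8 to 47.0 and the other 6 at -18.5 to 12.4, shifted the same way as in DMSO. Values without the 9 libraries numbered 1, a choice made after seeing the data, are given for the counts, the sums and the loci that they move most. Whether the labels of these libraries are right was not tested. Tandem copies can share sequence, and how reads fitting several copies were counted is not given in the sources used here, so the split of counts between neighbouring loci is uncertain.

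The summed level of the listed loci was severalfold higher under metcamifen, most so at 90 min, and was not higher under cyprosulfamide. Levels are given as CPM, the counts of a locus per 1000000 counts of the scaled library total, and the sum over the 32 loci was 493 ± 118 (mean ± SD, n = 3), 480.5 ± 129.9 and 532 ± 200.1 CPM in DMSO at 30, 90 and 240 min. Under metcamifen the sum was 1044 ± 153, 2537 ± 292 and 1176 ± 214 CPM, or 2.12, 5.28 and 2.21 times the DMSO mean of the same time. Under cyprosulfamide it was 408 ± 63.0, 405 ± 40.9 and 437 ± 44.5 CPM, or 0.828, 0.843 and 0.821 times DMSO. At each time the 3 metcamifen libraries lay above every DMSO and cyprosulfamide library. The sum gives no test, and 1 locus weighed heavily in it: LOC_Os10g38489 took 47.1%, 47.5% and 47.3% of the listed loci's summed counts in DMSO and 55.7%, 64.5% and 62.8% under metcamifen. Without that locus the metcamifen sums were still 1.79, 3.64 and 1.61 times DMSO. Over libraries 2 and 3 alone, with all listed loci, the metcamifen sums were 1.72, 4.29 and 1.64 times DMSO and the cyprosulfamide sums 0.786, 0.766 and 0.717 times.

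**Figure D1:**
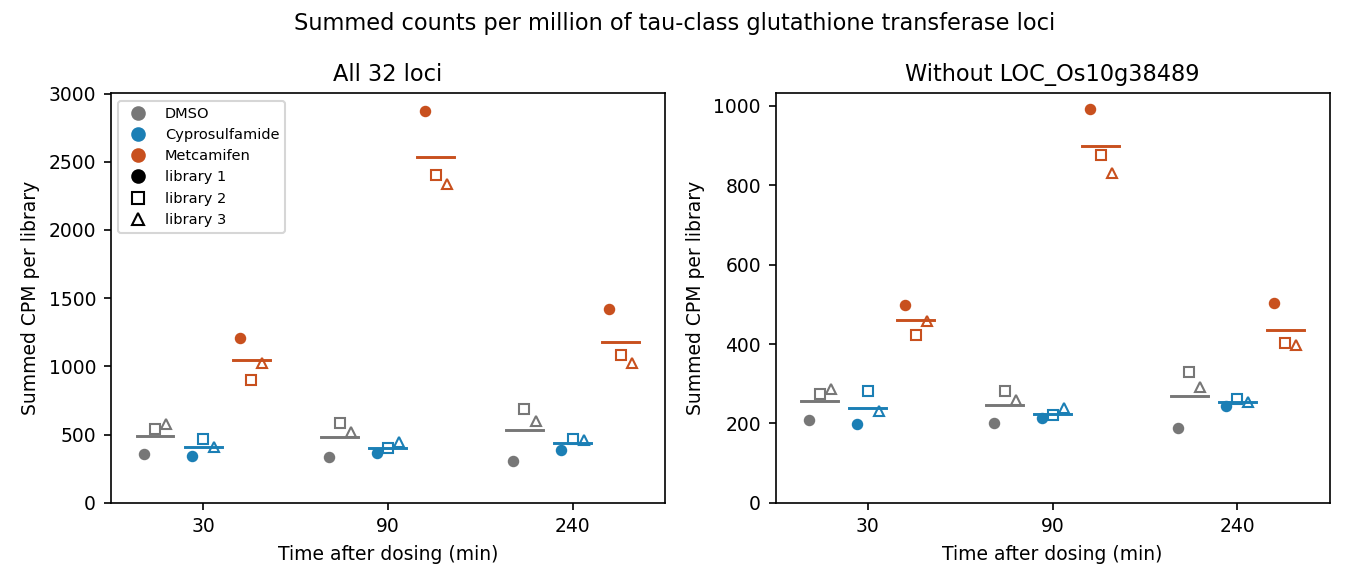
Summed CPM of the 32 listed loci in each of the 27 libraries (circles, squares and triangles for replicate numbers 1, 2 and 3; right panel, without LOC_Os10g38489), with a line at the mean of 3, by treatment and sampling time. The metcamifen libraries at 90 min average 2537 ± 292 CPM against 480.5 ± 129.9 CPM in DMSO, and the DMSO libraries numbered 1 are the lowest DMSO library at each time.

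Of the 32 loci, 22 had enough counts to be tested and 10 did not. Among those tested, LOC_Os10g38160 passed the minimum only through metcamifen libraries, since it reached 10 counts in 0 DMSO libraries. Each safener was compared with DMSO at each time by edgeR's quasi-likelihood test, with Benjamini-Hochberg adjustment over all 26465 loci tested and a threshold of 0.05. At 30 min metcamifen raised 10 listed loci and lowered 0, against a background of 1.16% raised and 0.185% lowered among all loci tested. At 90 min it raised 14, or 13 without LOC_Os10g38160, and lowered 0 (background 4.49% and 1.45%, or 3.97% and 2.22% with upper-quartile scaling). At 240 min it raised 8 and lowered 0 (background 3.06% and 1.59%). Without the 9 libraries numbered 1 it raised 10, 13 and 6 listed loci at these times and lowered 3, 0 and 4. In that fit the background was 2.0%, 4.26% and 4.19% raised and 6.03%, 3.54% and 8.42% lowered. The median log2 fold change over the tested listed loci was 0.47, 1.46 and 0.76, and without LOC_Os10g38160 it was 0.73, 1.31 and 0.58. Over all loci tested it was 0.00, -0.01 and -0.01.

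The loci raised at all 3 times numbered 8, of which 7 lie in the chromosome 10 run, which holds 15 of the 22 tested loci. These 8 were LOC_Os10g38140, LOC_Os10g38150, LOC_Os10g38489, LOC_Os10g38590, LOC_Os10g38610, LOC_Os10g38740, LOC_Os10g38780 and LOC_Os01g49720. A further 2, LOC_Os10g38189 and LOC_Os10g38314, were raised at 30 and 90 min, and 4, LOC_Os10g38160, LOC_Os10g38340, LOC_Os10g38360 and LOC_Os01g72120, at 90 min. The remaining 8 of the 22 passed the test at no time. Of the 14 raised loci, 11 had their largest log2 fold change at 90 min, 2 at 30 min and 1 at 240 min, by point estimates alone. Over all loci tested, raised loci were also most frequent at 90 min (4.49%, against 1.16% at 30 min and 3.06% at 240 min). How many of all loci were raised at all 3 times, or had their largest value at 90 min, was not counted. By position, metcamifen raised 9, 12 and 7 of the 15 tested loci of the chromosome 10 run at 30, 90 and 240 min. It raised 1 of the 2 in the chromosome 1 pair each time, and 0, 1 and 0 of the 5 in the chromosome 1 run.

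**Figure D2:**
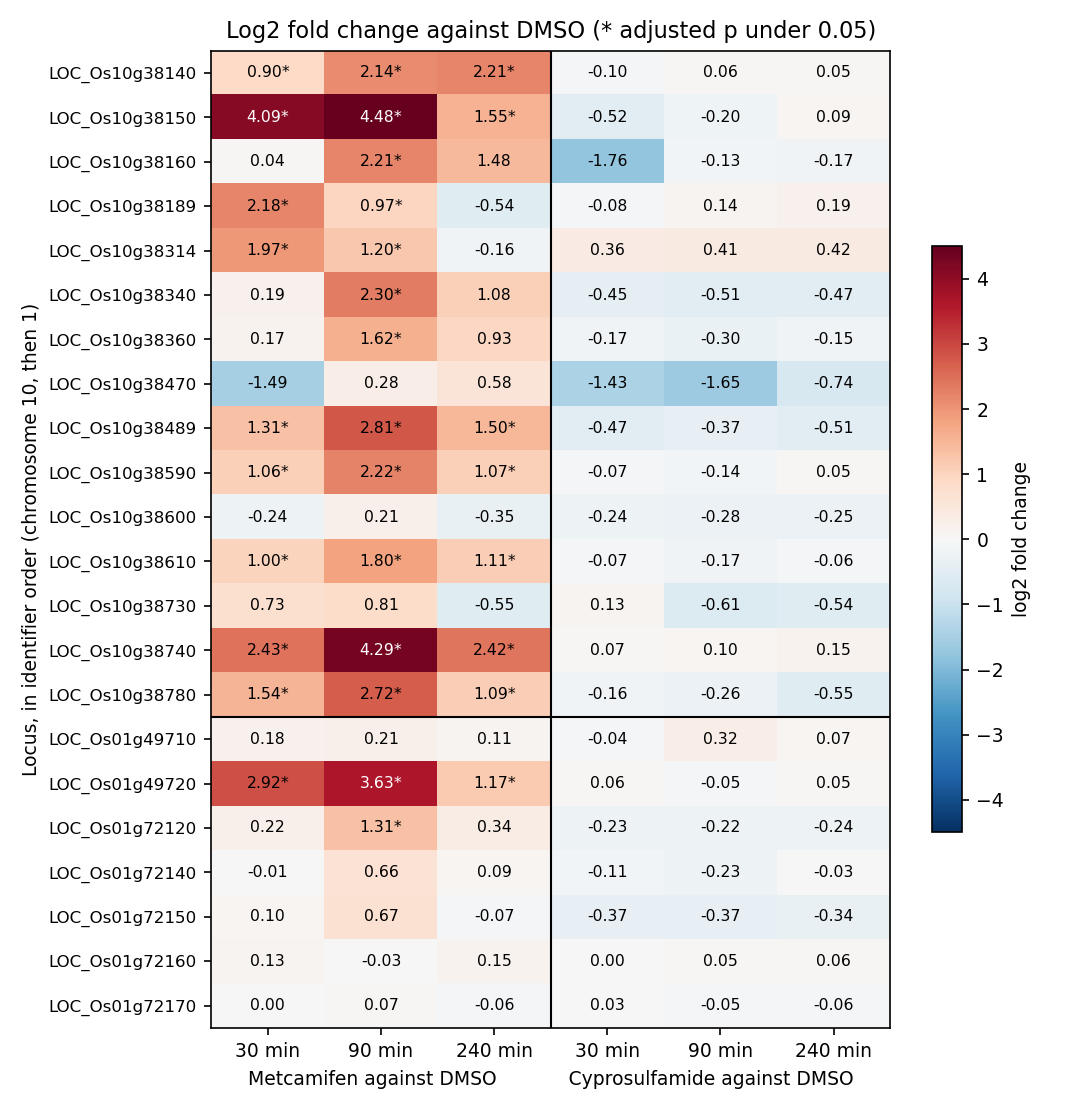
Log2 fold changes of the 22 tested loci for metcamifen against DMSO and cyprosulfamide against DMSO at the 3 times, with the colour scale in log2 units and asterisks at adjusted p under 0.05. Metcamifen calls fill much of the chromosome 10 run at 90 min, and the cyprosulfamide against DMSO columns hold 0 calls.

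LOC_Os10g38740 was raised strongly at each time, with little spread between replicates. Values of single libraries are listed in the order of replicate numbers 1, 2 and 3. In DMSO it measured 16.9, 15.5 and 15.6 CPM at 30 min, 16.5, 16.2 and 13.1 at 90 min and 11.4, 12.4 and 12.6 at 240 min. Under metcamifen it measured 92.8, 78.4 and 88.5 CPM at 30 min, 302, 299.9 and 296 at 90 min and 64.7, 65.9 and 64.0 at 240 min. The groups were far apart at every time. Its log2 fold change was 2.43 ± 0.13 (SE), 4.29 ± 0.13 and 2.42 ± 0.13, with adjusted p = 6.05e-12, 1.40e-16 and 1.19e-11 in edgeR's quasi-likelihood test. At 90 min this is a 19.6-fold difference.

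LOC_Os10g38150 rose from low counts and was already high after 30 min. It measured 1.02, 2.10 and 1.77 CPM in DMSO at 30 min, 0.965, 1.26 and 1.00 at 90 min and 1.14, 1.47 and 1.23 at 240 min. Under metcamifen it stood at 25.7, 26.6 and 30.2 CPM after 30 min, 21.2, 25.3 and 25.8 after 90 min and 2.81, 3.78 and 5.04 after 240 min. Each metcamifen library lay above each DMSO library of its time, by a much smaller margin at 240 min. The log2 fold changes were 4.09 ± 0.21, 4.48 ± 0.23 and 1.55 ± 0.23 (SE), with adjusted p = 1.51e-12, 1.26e-13 and 6.86e-05 in edgeR's quasi-likelihood test. The change between 30 and 90 min did not pass the test of the difference (log2 0.40, 95% interval -0.24 to 1.03).

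Its neighbour by number, LOC_Os10g38140, followed another course and was the 1 raised locus with its largest log2 fold change at 240 min. Its DMSO level lay between 4.65 and 6.84 CPM over the 9 libraries. Under metcamifen it measured 13.4, 11.7 and 12.8 CPM at 30 min, 26.8, 29.2 and 26.3 at 90 min and 24.4, 27.7 and 29.1 at 240 min. The 240 min level was thus close to that of 90 min. Log2 fold changes were 0.90 ± 0.12, 2.14 ± 0.12 and 2.21 ± 0.12 (SE), with adjusted p = 2.25e-05, 1.95e-12 and 6.05e-12.

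LOC_Os10g38489, the locus with the most counts of the list, showed a raised level that varied with replicate number. In DMSO it measured 149.9, 264 and 294 CPM at 30 min, 134, 305 and 261 at 90 min and 118, 361 and 307 at 240 min. Under metcamifen it measured 709, 479 and 564 CPM at 30 min, 1881, 1530.4 and 1504 at 90 min and 918, 679 and 627 at 240 min. The library numbered 1 was the lowest of each DMSO group and the highest of each metcamifen group, and the groups did not overlap. The log2 fold changes were 1.31 ± 0.31, 2.81 ± 0.31 and 1.50 ± 0.31 (SE), with adjusted p = 0.0303, 1.26e-06 and 0.00423. Without the 9 libraries numbered 1 they were 0.90, 2.42 and 0.97, with adjusted p = 4.43e-05, 1.18e-10 and 1.32e-05. At 30 min the call was lost without DMSO replicate 1 or 2, or without metcamifen replicate 1 or 3. At 240 min it was lost when only the 6 compared libraries were fitted.

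LOC_Os10g38590 and LOC_Os10g38610 moved less and kept to the same course as the sum. LOC_Os10g38590 measured 35.2, 44.1 and 43.5 CPM in DMSO at 30 min, 34.0, 38.0 and 39.1 at 90 min and 27.6, 34.1 and 38.2 at 240 min. Under metcamifen it measured 87.4, 81.0 and 87.1 CPM at 30 min, 185, 176 and 157 at 90 min and 75.2, 65.0 and 68.5 at 240 min, all above DMSO. Its log2 fold changes were 1.06, 2.22 and 1.07, with SE of 0.11, 0.11 and 0.11 and adjusted p = 3.95e-07, 2.33e-13 and 3.71e-07. LOC_Os10g38610 ranged from 15.3 to 27.8 CPM over the DMSO libraries and, under metcamifen, measured 49.1, 45.0 and 45.0 CPM at 30 min, 76.5, 69.9 and 65.0 at 90 min and 48.7, 40.2 and 37.8 at 240 min. Its log2 fold changes of 1.00, 1.80 and 1.11 had adjusted p = 0.000173, 6.17e-09 and 3.55e-05.

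LOC_Os10g38780 and LOC_Os01g49720 were raised at each time, with calls at 240 min that depended on single libraries. LOC_Os10g38780 averaged 3.97 ± 1.05, 3.20 ± 1.09 and 3.24 ± 1.22 CPM in DMSO and 11.6 ± 1.83, 21.1 ± 5.14 and 6.81 ± 1.56 CPM under metcamifen (mean ± SD, n = 3). It rose by log2 1.54, 2.72 and 1.09, with adjusted p = 0.00101, 9.27e-08 and 0.0194 in edgeR's quasi-likelihood test. LOC_Os01g49720, on chromosome 1, measured 4.23, 3.48 and 5.25 CPM under metcamifen at 30 min, 10.6, 8.07 and 8.78 at 90 min and 2.48, 1.32 and 1.65 at 240 min, while the 9 DMSO libraries lay between 0.480 and 1.17. It rose by log2 2.92, 3.63 and 1.17, with adjusted p = 2.39e-06, 6.03e-09 and 0.0433. Both calls at 240 min were lost without DMSO replicate 1 or 3 or without metcamifen replicate 1, and that of LOC_Os01g49720 also without metcamifen replicate 3. Without the 9 libraries numbered 1 the values at 240 min were log2 0.62 and 0.62. Its neighbour LOC_Os01g49710 measured 3.66 to 7.18 CPM in DMSO and 5.67, 5.45 and 5.70 CPM under metcamifen at 90 min, and its log2 difference of 0.21 did not pass the test.

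LOC_Os10g38189 and LOC_Os10g38314 had an early rise that was over by 240 min. LOC_Os10g38189 measured 3.89, 4.20 and 4.02 CPM in DMSO at 30 min and 19.9, 16.5 and 18.8 under metcamifen. At 90 min it measured 2.84, 3.97 and 5.13 in DMSO and 7.92, 8.82 and 6.73 under metcamifen, and at 240 min 4.03, 5.28 and 5.78 in DMSO and 3.43, 3.40 and 3.50 under metcamifen. At 240 min the metcamifen libraries thus lay below the DMSO libraries, a log2 difference of -0.54 that did not pass the test (adjusted p = 0.110, edgeR's quasi-likelihood test). Without DMSO replicate 1 at 240 min that difference passed, and without the 9 libraries numbered 1 it was -0.68 (adjusted p = 0.0318). LOC_Os10g38314 measured 7.47, 7.39 and 8.08 CPM under metcamifen at 30 min against 2.10, 1.86 and 1.89 in DMSO, and 2.48, 2.17 and 1.65 against 2.01, 2.69 and 2.52 at 240 min. Their rises at 30 min were log2 2.18 (adjusted p = 6.30e-09) and 1.97 (adjusted p = 5.35e-07), and at 90 min 0.97 and 1.20.

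Of the loci raised at 90 min alone, LOC_Os10g38340 measured 3.06, 4.81 and 5.52 CPM in DMSO and 32.1, 17.3 and 16.9 under metcamifen, a log2 rise of 2.30 ± 0.39 (SE, adjusted p = 0.000284), or 1.72 without the 9 libraries numbered 1 (adjusted p = 9.16e-06). LOC_Os10g38360 measured 15.3, 35.7 and 27.8 CPM in DMSO and 113, 66.3 and 62.8 under metcamifen, a log2 rise of 1.62 (adjusted p = 0.00545) that was lost without DMSO replicate 1 or metcamifen replicate 1. Its rise was 1.02 without the 9 libraries numbered 1 and passed (adjusted p = 0.000177, edgeR's quasi-likelihood test). In both the metcamifen library numbered 1 was well above the other two. LOC_Os01g72120, from the chromosome 1 run, measured 2.95, 5.77 and 5.07 CPM in DMSO and 11.1, 12.5 and 10.5 under metcamifen, a log2 rise of 1.31 (adjusted p = 0.000910). LOC_Os10g38160 measured 0.0536, 0.240 and 0.223 CPM in DMSO and 1.02, 0.747 and 0.697 under metcamifen, and its call (log2 2.21, adjusted p = 0.0485) was lost when any 1 of the 6 compared libraries was left out. For these 4 loci the metcamifen effect at 30 or 240 min is not shown to differ from that at 90 min, since the change between times did not pass the test in the same fit, although with the replicate block, given with the changes over time, it passed for LOC_Os10g38340, LOC_Os10g38360 and LOC_Os01g72120.

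**Figure D3:**
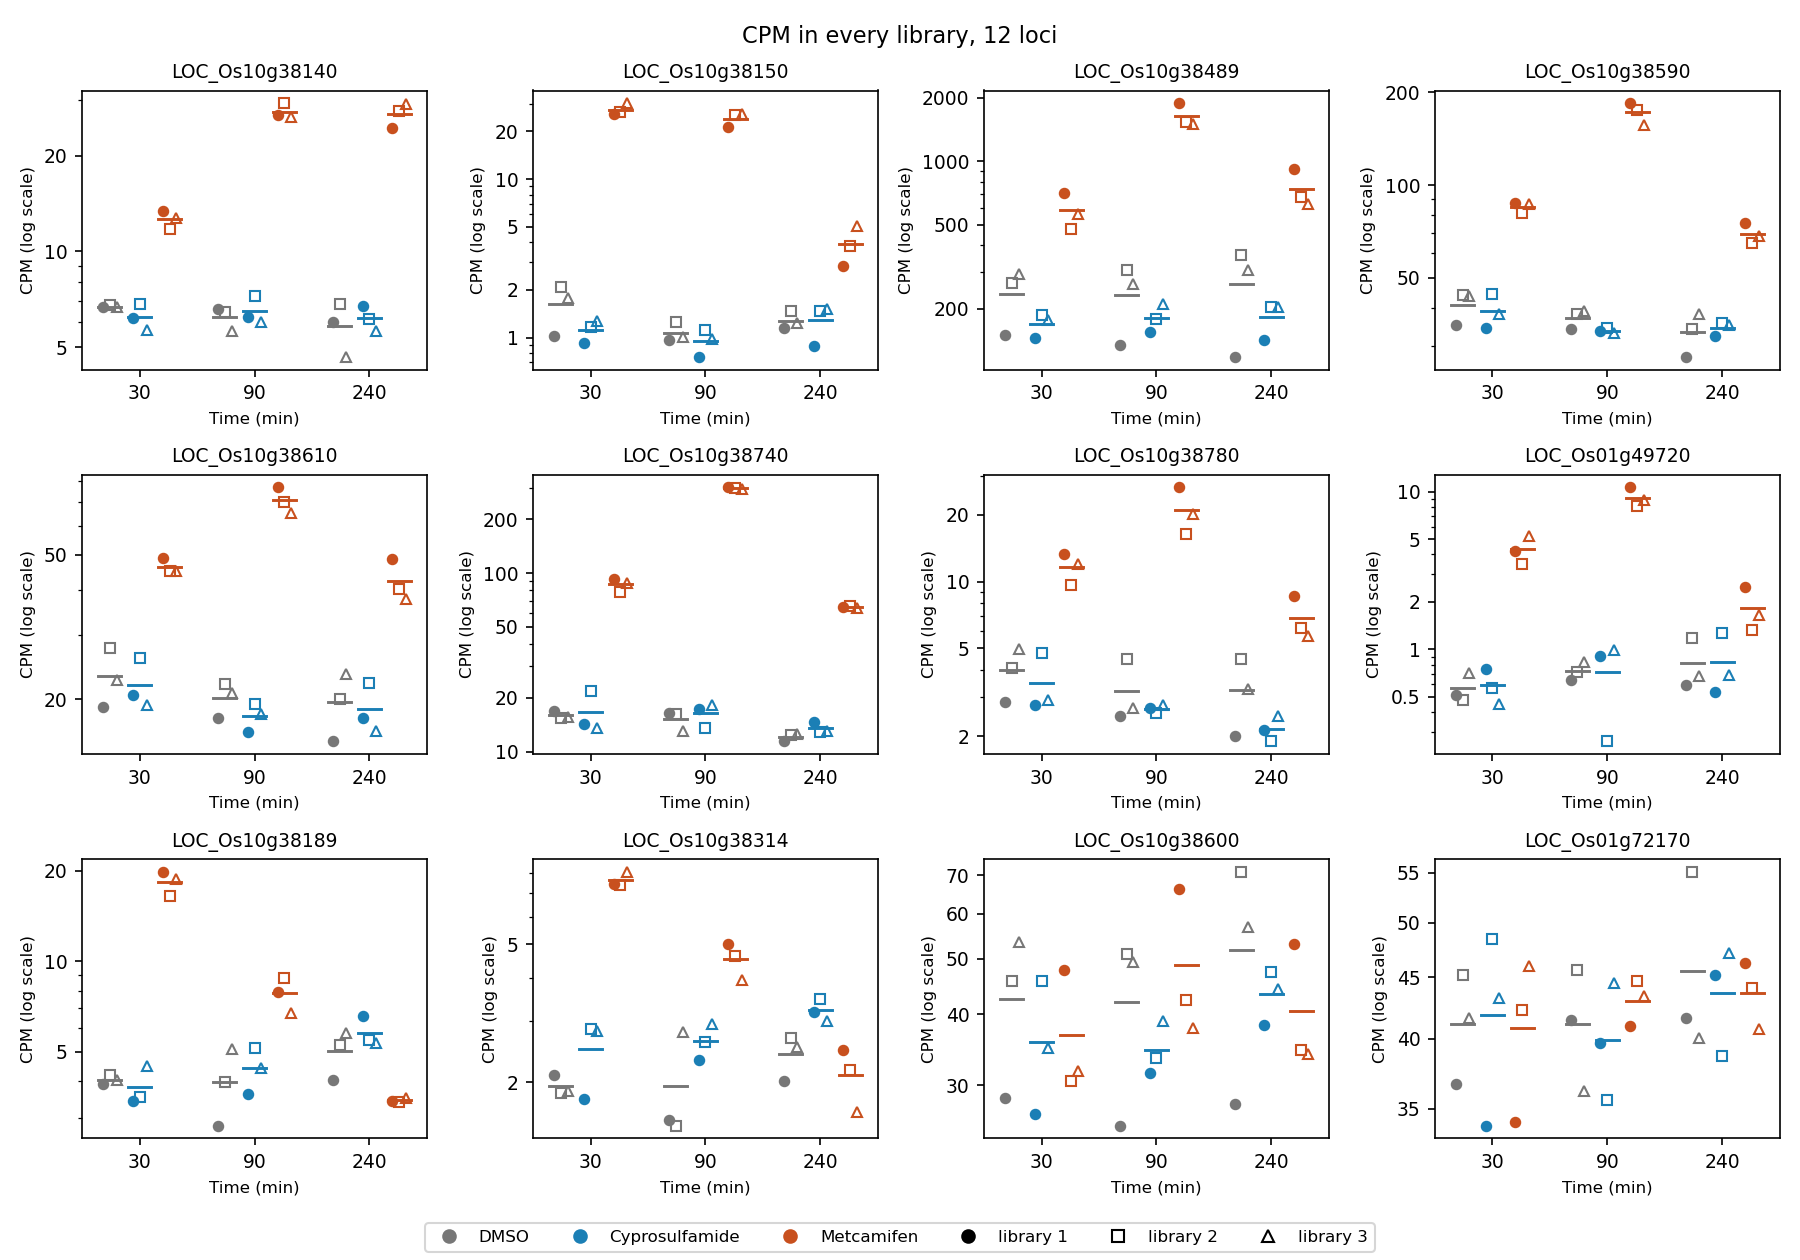
CPM in each of the 27 libraries (log axis) for 12 listed loci, by treatment and time, with circles, squares and triangles for replicate numbers 1, 2 and 3 and a line at each mean. The panel of LOC_Os10g38740 shows metcamifen far above both other treatments, and that of LOC_Os10g38489 shows the DMSO libraries numbered 1 below and the metcamifen libraries numbered 1 above their groups.

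The loci that passed the test at no time include LOC_Os01g72170 and LOC_Os10g38600, both among the 5 listed loci with the highest mean CPM. LOC_Os01g72170 measured 41.5, 45.7 and 36.2 CPM in DMSO at 90 min and 41.0, 44.7 and 43.4 under metcamifen, and its 95% interval for the log2 difference was -0.29 to 0.29, -0.22 to 0.35 and -0.34 to 0.22 at the 3 times. LOC_Os10g38600 measured 25.5, 51.1 and 49.3 CPM in DMSO and 66.1, 42.4 and 37.8 under metcamifen at 90 min, with the groups overlapping and an interval of -0.42 to 0.85. Here too the library numbered 1 was the lowest of the DMSO group and the highest of the metcamifen group. Without the 9 libraries numbered 1, LOC_Os10g38600 was lower under metcamifen at 30 min (log2 -0.67, adjusted p = 0.00326) and at 240 min (log2 -0.90, adjusted p = 0.000197). The other members of the chromosome 1 run, LOC_Os01g72140, LOC_Os01g72150 and LOC_Os01g72160, had log2 differences of 0.66, 0.67 and -0.03 at 90 min, none past the test. Without the 9 libraries numbered 1, LOC_Os01g72140 was lower at 30 min (log2 -0.46, adjusted p = 0.0344) and 240 min (-0.52, adjusted p = 0.0118), and LOC_Os01g72150 at 240 min (-0.61, adjusted p = 0.00914). LOC_Os10g38470 and LOC_Os10g38730 averaged under 2 CPM in every group, and their largest log2 differences between metcamifen and DMSO were -1.49 and 0.81, neither past the test. Under cyprosulfamide LOC_Os10g38470 differed from DMSO by up to log2 -1.65, at 90 min, also short of the test. For LOC_Os10g38470 the difference between metcamifen and DMSO at 30 min was -2.33 without the 9 libraries numbered 1 and then passed (adjusted p = 0.00573).

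The 10 loci below the count minimum were LOC_Os10g38350, LOC_Os10g38540, LOC_Os10g38580, LOC_Os10g38640, LOC_Os10g38660, LOC_Os10g38670, LOC_Os10g38700, LOC_Os10g38710, LOC_Os10g38720 and LOC_Os07g28480. LOC_Os10g38710 had 1 count over all 27 libraries. When all loci were fitted without the minimum, LOC_Os10g38350 and LOC_Os10g38720 passed for metcamifen against DMSO at 90 min, with adjusted p = 0.00743 and 0.000193 in edgeR's quasi-likelihood test. LOC_Os10g38350 had 9, 5 and 12 counts in the metcamifen libraries at 90 min and LOC_Os10g38720 had 6, 11 and 17, while the 3 DMSO libraries held 1 count in all for each. The other 8 loci below the minimum passed in none of the 3 metcamifen comparisons with DMSO in that fit.

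The courses were also tested as a change of the metcamifen effect between times. From 30 to 90 min the effect changed in 4 listed loci (background 1.69% in either direction, of which 89.5% grew, or 83.3% with upper-quartile scaling). It grew by log2 1.86 ± 0.18 (SE) for LOC_Os10g38740 (adjusted p = 8.43e-07, edgeR's quasi-likelihood test), 1.24 ± 0.17 for LOC_Os10g38140 (6.87e-05) and 1.16 ± 0.15 for LOC_Os10g38590 (4.15e-05), and changed by -1.21 ± 0.25 for LOC_Os10g38189 (0.00677), a call lost without the 3 metcamifen libraries numbered 1 and after thinning to the smallest library. From 90 to 240 min it declined in 7 and grew in 0 (background 1.93% in either direction, of which 26.7% grew, or 36.8% with upper-quartile scaling). The steepest declines were -2.94 ± 0.32 for LOC_Os10g38150 (adjusted p = 3.51e-06), -2.46 for LOC_Os01g49720 (0.00348) and -1.87 for LOC_Os10g38740 (7.78e-07), with LOC_Os10g38780, LOC_Os10g38189, LOC_Os10g38314 and LOC_Os10g38590 between -1.63 and -1.15. From 30 to 240 min the effect changed in 4 (background 1.33% in either direction, of which 57.7% grew). It changed by 1.30 for LOC_Os10g38140 (adjusted p = 5.73e-05) and by -2.54, -2.72 and -2.13 for LOC_Os10g38150, LOC_Os10g38189 and LOC_Os10g38314.

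Within each treatment the replicate numbers paired the DMSO libraries and the metcamifen libraries across times, and with the replicate number as a block the counts of changed loci were larger. The block gave 13 loci for the step between 30 and 90 min, 15 for that between 90 and 240 min and 6 over the whole span, against 7.99%, 9.34% and 3.46% of all loci in the same fits, and each locus changed without the block was among them. It added LOC_Os10g38489, whose effect grew by log2 1.54 from 30 to 90 min (adjusted p = 1.85e-09, edgeR's quasi-likelihood test) and changed by -1.26 from 90 to 240 min (adjusted p = 2.49e-07). LOC_Os10g38340, LOC_Os10g38360, LOC_Os10g38600, LOC_Os10g38610, LOC_Os01g72120, LOC_Os01g72140 and LOC_Os01g72150 were added for both of those steps, and LOC_Os10g38780 for the step from 30 to 90 min. Without the block, the calls of LOC_Os10g38780 and LOC_Os10g38314 for the later step were lost when DMSO replicate 1 at 90 min was left out, and in all under 10 and 5 of the 21 alternatives. That of LOC_Os10g38189 for the later step was lost after thinning.

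**Figure D4:**
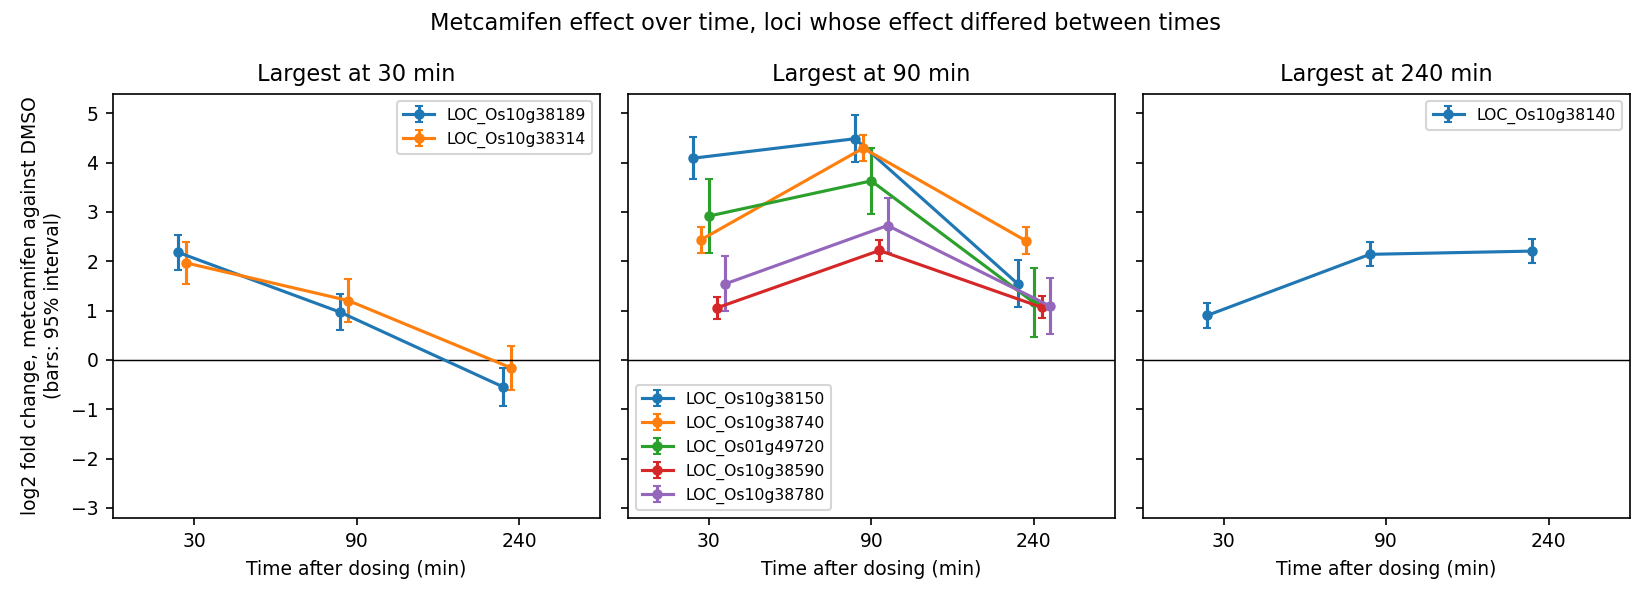
Log2 fold change of metcamifen against DMSO (points, with 95% intervals) at the 3 times, evenly spaced, for the 8 loci whose effect differed between times, in panels by the time of the largest value. LOC_Os10g38740 peaks at 4.29 at 90 min, LOC_Os10g38189 declines from 2.18 to -0.54, and LOC_Os10g38140 stays at 2.21 at 240 min.

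In DMSO alone 0 listed loci passed the test between times, against backgrounds of 0.242%, 0.71% and 1.89% of all loci for 90 against 30 min, 240 against 90 min and 240 against 30 min. At an unadjusted p under 0.05 there were 1, 1 and 3 of 22, beside 5.65%, 9.12% and 12.4% of all loci, and DESeq2 called 0 in each. With the replicate block, by which these libraries pair, LOC_Os01g72150 rose by log2 0.45 from 90 to 240 min (adjusted p = 0.0380, edgeR's quasi-likelihood test) and LOC_Os10g38590 fell by 0.30 from 30 to 240 min (adjusted p = 0.0482). These are 1 of 22 loci in each comparison, near the 4.36% and 4.39% of all loci called in the same fits.

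Cyprosulfamide at the same dose moved 0 listed loci past the test at 30, 90 or 240 min, against backgrounds of 0.00378%, 0% and 0% of all loci. At an unadjusted p under 0.05 there were 2, 1 and 0 of 22, beside 9.63%, 3.09% and 6.31% of all loci, and DESeq2 called 0 at each time. LOC_Os10g38740 measured 17.4, 13.7 and 18.2 CPM under cyprosulfamide at 90 min and LOC_Os10g38150 0.755, 1.11 and 0.984 CPM, both within or close to their DMSO values. For LOC_Os10g38740 the 95% interval of the log2 difference from DMSO at 90 min was -0.18 to 0.39, and for LOC_Os10g38590 it was -0.36 to 0.09. The interval stayed within 2-fold either way for 17, 16 and 16 of the 22 loci at the 3 times, so that for these loci larger differences lie outside it. LOC_Os10g38489 measured 145, 188 and 178 CPM at 30 min, 155, 179 and 209.6 at 90 min and 143, 204 and 204 at 240 min under cyprosulfamide. Libraries 2 and 3 lay below their DMSO counterparts at each time, and library 1 lay above its counterpart at 90 and 240 min. Without the 9 libraries numbered 1 it was lower than in DMSO at 30 min (log2 -0.61, adjusted p = 0.0188) and at 240 min (log2 -0.71, adjusted p = 0.00219), and LOC_Os10g38340 was lower at 240 min (log2 -0.91, adjusted p = 0.0306). In that fit cyprosulfamide lowered 0.854% and 2.61% of all loci at 30 and 240 min and raised 0.37% and 0.272%.

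The 1 pair of safeners was compared directly at each matched time. Metcamifen exceeded cyprosulfamide in 10 listed loci at 30 min (background 1.18%), 16 at 90 min (5.05%) and 8 at 240 min (2.47%), and was below it in 0, 0 and 1 (background 0.246%, 1.73% and 1.47%). Without LOC_Os10g38160, which passed the count minimum only through metcamifen libraries, the 16 at 90 min were 15. With upper-quartile scaling the background at 90 min was 4.23% higher and 3.27% lower. These comparisons use the same metcamifen libraries as those with DMSO. The log2 difference at 90 min was 4.68 ± 0.25 (SE) for LOC_Os10g38150 (adjusted p = 1.45e-13, edgeR's quasi-likelihood test), 4.19 ± 0.13 for LOC_Os10g38740 (2.73e-16), 3.68 ± 0.35 for LOC_Os01g49720 (9.36e-09) and 3.18 ± 0.31 for LOC_Os10g38489 (2.41e-07). The 16 loci at 90 min were the 14 that metcamifen raised over DMSO with LOC_Os10g38730 (log2 1.42, adjusted p = 0.00581) and LOC_Os01g72150 (1.03, adjusted p = 0.0148). At 240 min LOC_Os10g38340 exceeded cyprosulfamide by log2 1.55 (adjusted p = 0.0416), and LOC_Os01g49720 did not pass (1.12, adjusted p = 0.124). The locus below cyprosulfamide was LOC_Os10g38189 at 240 min (log2 -0.73, adjusted p = 0.0330), a call lost without any 1 of the 6 compared libraries. The calls of LOC_Os10g38160, LOC_Os10g38314 and LOC_Os01g72150 at 90 min and LOC_Os10g38340 at 240 min were likewise lost without single libraries, and that of LOC_Os10g38730 at 90 min was lost after thinning and with the replicate block. For LOC_Os01g72170 the safeners were not told apart, with 95% intervals of -0.31 to 0.26, -0.17 to 0.40 and -0.29 to 0.29 on the log2 scale.

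The libraries numbered 1 differed from the others by unequal amounts over the listed loci. In DMSO the mean of libraries 2 and 3 exceeded library 1 by log2 0.89 to 1.49 for LOC_Os10g38489, 0.91 to 1.50 for LOC_Os10g38360, 0.79 to 1.19 for LOC_Os10g38600 and 1.11 to 2.05 for LOC_Os10g38470 over the 3 times. Under metcamifen the same difference ran the other way, at -0.49 to -0.31, -0.80 to -0.66, -0.72 to -0.61 and -1.34 to -0.09. For LOC_Os10g38740 it was -0.18 to 0.12 in DMSO and -0.15 to 0.01 under metcamifen, and for LOC_Os10g38140 -0.13 to 0.01 and -0.13 to 0.22. Under cyprosulfamide the difference for LOC_Os10g38489 was 0.32 to 0.52. Beyond the values without these libraries, their part in the comparisons was not tested.

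**Figure D5:**
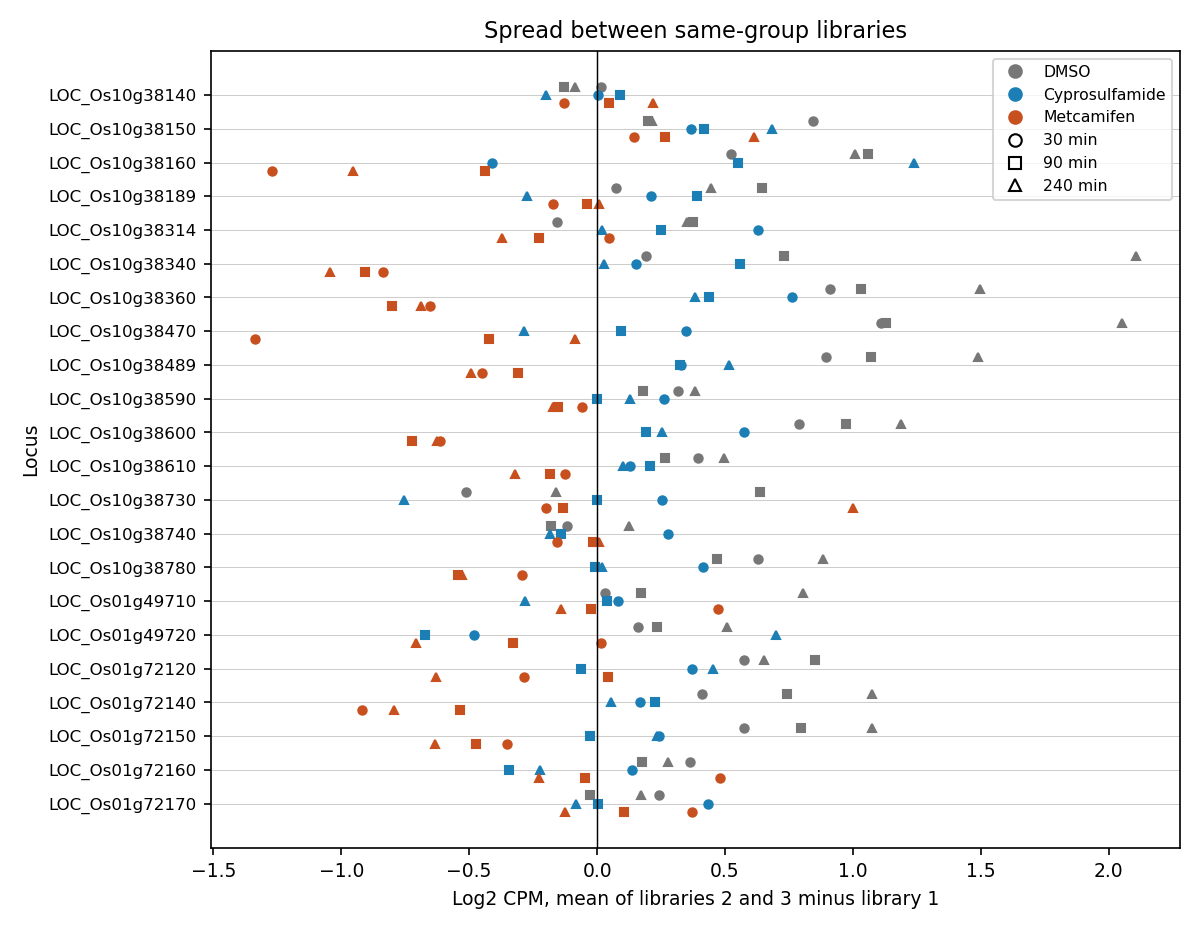
Log2 difference between the mean of libraries 2 and 3 and library 1 for the tested listed loci, coloured by treatment, with a symbol for each time. Values for LOC_Os10g38489 run from 0.89 to 1.49 in DMSO and from -0.49 to -0.31 under metcamifen, and those for LOC_Os10g38740 lie near 0 in both.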

How the data were processed

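RNA-seq read counts per locus came from 1 table of whole-number counts deposited by the authors, with 27 columns matched to the labels. GSNAP and edgeR are the tools listed per the submitters' processing notes, and the build, strand setting and counting of multiply matching reads are not given in these sources. Libraries were grouped by the labels' treatment and time, with 3 per group.

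Loci passed edgeR's filterByExpr (minimum count 10, minimum total 15), leaving 26465 of 46102. Counts were scaled by TMM and fitted in edgeR 4.0.16 (R 4.3.3, limma 3.58.1) with 1 mean for each of the 9 groups and 18 residual degrees of freedom. 15 comparisons were tested two-sided by the quasi-likelihood test, with Benjamini-Hochberg adjustment over all loci within each and a threshold of 0.05. CPM are counts per 1000000 counts of the TMM-scaled total of loci that passed, and a prior count of 2 was added for the replicate-number differences. CPM are not divided by transcript length, so an order of loci by mean CPM and a share of summed counts are of reads and not of transcript levels. Standard errors and 95% intervals came from the same fit.

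Loci were named if called in any of the 9 comparisons between treatments, up to 12 by largest log2 fold change, with up to 5 more by mean CPM; others are given briefly. The listed loci and the rules were chosen with earlier results of these data known. Other genes of glutathione metabolism were not described, since identifiers could not be paired with names. No list was tested as a set. The code was tested on simulated data. Alternatives were upper-quartile scaling, no count minimum, thinning to the smallest library, DESeq2 1.42.0, only the compared libraries, a replicate block and leaving out each library; leaving out the libraries numbered 1 was added after seeing the data. Same-numbered libraries deviated together (every correlation over 0.1) between times of DMSO (0.35 to 0.82) and of metcamifen (0.25 to 0.74) and between 90 and 240 min of cyprosulfamide (0.20 to 0.55), and not between metcamifen or cyprosulfamide and DMSO at the same time.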

Additional observations from a re-analysis of the deposited data

Results flagged for a closer look

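For 8 listed loci the effect of metcamifen against DMSO differed between sampling times by the test of that difference itself (edgeR's quasi-likelihood test, adjusted p under 0.05). From 30 to 90 min the log2 effect changed by 1.86 for LOC_Os10g38740, 1.24 for LOC_Os10g38140, 1.16 for LOC_Os10g38590 and -1.21 for LOC_Os10g38189. From 90 to 240 min it changed by -2.94 for LOC_Os10g38150, -2.46 for LOC_Os01g49720, -1.87 for LOC_Os10g38740, -1.63 for LOC_Os10g38780, -1.51 for LOC_Os10g38189, -1.36 for LOC_Os10g38314 and -1.15 for LOC_Os10g38590. From 30 to 240 min it changed by 1.30 for LOC_Os10g38140, -2.54 for LOC_Os10g38150, -2.72 for LOC_Os10g38189 and -2.13 for LOC_Os10g38314. LOC_Os10g38740 and LOC_Os10g38590 grew and then declined, while LOC_Os10g38189 declined at both steps.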

How the results depend on the processing

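The number of listed loci called is given with the value under each alternative that moved it by over 1.5 times, and the cause of these shifts was not tested. The change of the metcamifen effect from 30 to 90 min, 4 loci, was 7 with no count minimum, 7 with DESeq2, 7 without the 3 DMSO libraries numbered 1 and 8 without all 9 numbered 1. The change from 90 to 240 min, 7 loci, was 4 after thinning and 13 without the 9 numbered 1. Metcamifen against DMSO at 240 min, 8 loci, was 5 when the compared libraries were fitted alone. Without the 9 numbered 1, cyprosulfamide against DMSO went from 0 to 1 at 30 min and 2 at 240 min, and DMSO at 240 against 30 min from 0 to 1. In that fit 1.22%, 2.89% and 2.69% of all loci were called in these comparisons, and 2.21% and 3.02% for the changes from 30 to 90 and 90 to 240 min. With each library left out in turn, metcamifen against DMSO gave 9 to 10, 12 to 13 and 6 to 8 loci, metcamifen against cyprosulfamide 10 to 10, 13 to 15 and 7 to 8, the changes 4 to 6, 5 to 10 and 4 to 5, and the remaining comparisons 0. Beside the counts under the other alternatives of this paragraph no share of all loci is given. A shift particular to the listed loci thus cannot be told from a general one there.

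With the replicate block the change from 30 to 90 min was 13 loci and that from 90 to 240 min 15 (background 7.99% and 9.34% of all loci). DMSO then gave 1 for 240 against 90 min and 1 for 240 against 30 min (background 4.36% and 4.39%). Between metcamifen and DMSO at one time the correlations of same-numbered libraries were -0.84 to -0.29, which did not meet the rule for pairing. The paired fit gave 6 loci at 30 min (10 without it) and 1 at 240 min (8 without it). Among all loci the paired fit called 0.646% and 0.102% at these times, against 1.35% and 4.65% without it.

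Over the 16 loci called between treatments, with the 5 of highest mean CPM, 104 main values had 1615 alternative values. A value was entered only if it passed in the main fit or compared metcamifen with DMSO at one time. Of the 1615, 1498 stayed on the same side of the threshold (43 with another sign, past the test in neither fit). Another 111 no longer passed and 6 newly passed, and 0 that passed in either fit changed sign. New calls in other comparisons, such as those added by the replicate block, could not be among the 6. Upper-quartile scaling moved the median of all loci by at most -0.06, and the loci lowered at 90 min among all loci from 384 to 587 against DMSO and from 459 to 866 against cyprosulfamide. Few counts limit LOC_Os10g38160, LOC_Os10g38470, LOC_Os10g38730 and LOC_Os01g49720.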

Other observations

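The chromosome 10 run of listed loci also holds other loci by number. The count table has 25 loci numbered between LOC_Os10g38140 and LOC_Os10g38780 that are not on the list, of which 7 could be tested. Metcamifen against DMSO called 0 of these 7 at 30, 90 and 240 min in edgeR's quasi-likelihood test. In the same test 1.35%, 5.94% and 4.65% of all loci were called, so that 0 of 7 does not set these loci apart. At an unadjusted p under 0.05 there were 1, 1 and 0 of the 7, beside 1939, 3838 and 3980 of all 26465 loci tested. The interval for the log2 fold change stayed within 2-fold either way for only 3, 2 and 3 of the 7. For the rest, larger differences lie within it. The median log2 fold change of the 7 was 0.01, 0.05 and -0.02, beside 1.00, 2.14 and 1.08 over the 15 tested loci of the list in the same run. DESeq2 called 0 of the 7 at each time, and the difference between the 2 groups of loci was not tested.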
